A study of Mus musculus with 24 samples.

Results

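Gene expression was compared between the 2 subsets of splenic conventional dendritic cells, cDC2 and cDC1, in mice that carried Cre and a Zeb2 transgene meant to be switched on by it. The comparison rested on the 4 libraries titled cDC2 TG CRE+ and the 4 titled cDC1 TG CRE+, 8 of the 24 libraries of the series, chosen by title. Both groups came from CD11cCRExR26-Zeb2Tg/Tg mice, homozygous for a Zeb2 transgene at the Rosa26 locus and carrying a Cre driven by CD11c sequences. The same subset difference was read in 2 cDC2 and 2 cDC1 libraries of the transgene line without Cre (R26-Zeb2Tg/Tg, titled TG CRE-), which carry the same transgene alleles but no Cre. A further 2 cDC2 and 2 cDC1 libraries without Cre came from mice with floxed Zeb2 (Zeb2fl/fl, titled KO CRE-). This line is called the deletion line here, and these libraries served to choose genes. The remaining libraries, 4 of cDC2 and 4 of cDC1 titled KO CRE+, came from the deletion line with Cre and are not compared here. All libraries of the deletion line also entered the filter on low counts and the fit that estimated the spread. The mice were untreated C57Bl/6 animals of 6 to 12 weeks. Cells were isolated from spleen by fluorescence-activated sorting with antibodies that the labels do not name. Because CD11c is active in both subsets, Cre-positive cDC2 and Cre-positive cDC1 were both meant to express the transgene, and "with the transgene" stands for the Cre-positive groups. Zeb2 RNA was called higher with Cre in cDC1 and was not called different in cDC2. Cre-positive mice also differed from Cre-negative mice in carrying the Cre driver itself. Effects of the driver and of the transgene therefore cannot be told apart in any comparison of Cre-positive with Cre-negative mice below, in either subset. The labels do not say whether a library came from a single mouse or from a pool, and p-values therefore cover only the spread among the libraries, which may be technical.

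The cDC1 subset is known for taking up dead cells and presenting their antigens to CD8 T cells, and depends in mice on the transcription factors Irf8, Batf3 and Id2. The cDC2 subset is known for priming CD4 T cells and is marked by Sirpa, Itgam (CD11b) and, in part of the spleen population, Esam and Cd4. Zeb2 encodes a zinc-finger and homeobox repressor that binds paired E-box motifs and is normally far more abundant in cDC2 than in cDC1. Id2 encodes an inhibitor that binds E proteins such as Tcf4 and keeps them off DNA.

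The libraries held between 23355617 counts (cDC2 TG CRE+ replicate 3) and 36094786 counts (cDC1 TG CRE+ replicate 4) in the Cre-positive groups. In the Cre-negative libraries of the transgene line totals ran from 21972763 to 26436889 counts. Of 24421 genes listed, 13166 passed a filter on low counts and were tested. Values are given as CPM (counts scaled to a library total fixed by the TMM method). Differences are log2 fold changes of cDC2 over cDC1, so that a positive value means a higher level in cDC2. Tests were edgeR's quasi-likelihood tests, their p-values adjusted over all tested genes after Benjamini and Hochberg, and a gene was called at an adjusted p under 0.05. All pairs of replicates differed by more than sampling noise. Cre-positive replicates 1 and 2 lay closest to each other in both subsets, with a chi-square per gene of 10.1 in cDC2 and 14.2 in cDC1, against 16.7 and 41.1 for replicates 3 and 4. The labels name no batch for this split, and some of the results that moved with it are given without those libraries.

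In Cre-positive mice 3535 genes were called higher in cDC2 (26.8% of those tested) and 3426 lower (26%), together 52.9%. The 4 libraries of cDC2 and the 4 of cDC1 did not overlap for 47.8% of tested genes with Cre, and the 2 and 2 without Cre for 69.2%. Without Cre, 2758 genes were called higher (20.9%) and 2709 lower (20.6%), together 41.5%. The Cre-positive comparison had 4 libraries a group and the Cre-negative comparison 2, so these counts were not comparable as numbers of differences. Differences of at least 2-fold were called higher for 1768 genes and lower for 973 in Cre-positive mice, against 1609 and 1099 in Cre-negative mice. The libraries of the 2 comparisons are separate, and 4733 genes were called in both, which is 68% of the calls with Cre and 86.6% of those without. Of these, 4711 had the same direction and 22 the opposite direction. The correlation of the 2 differences across tested genes was 0.80, given as a description since genes are not independent replicates.

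Whether a difference had changed was tested directly, as the subset difference in Cre-positive mice minus that in Cre-negative mice, called the change. It was called for 264 genes (2.01% of those tested), of which 182 had a smaller difference of the same sign with the transgene, 22 a larger one of the same sign and 60 an estimate of the opposite sign. A negative change was called for 156 genes (1.18%) and a positive one for 108 (0.82%). The Cre effect itself was called for 235 of the 264 genes in cDC1, for 8 in cDC2, for 2 in both, counted in each, and for 23 in neither. Over all tested genes, Cre-positive cDC2 differed from Cre-negative cDC2 in 43 genes (0.327%), 0.114% higher and 0.213% lower. Cre-positive cDC1 differed from Cre-negative cDC1 in 922 genes (7%), 3.58% higher and 3.42% lower. The shares of all tested genes in this and the preceding paragraph are the background for every count of list members below. Without Cre-negative cDC2 replicate 1 the change was called for 138 genes, and without Cre-negative cDC1 replicate 2 for 141. The Cre effect in cDC2 was called for 25 and 18 genes without Cre-negative cDC2 replicate 1 or 2, and that in cDC1 for 596 and 487 without Cre-negative cDC1 replicate 1 or 2.

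Subset genes were next chosen in the deletion line without Cre, which shares no library with either side of the comparison, as genes with an adjusted p under 0.05 and at least a 4-fold difference (that contrast called 39.5% of tested genes, 20.1% higher and 19.4% lower in cDC2). This gave 912 cDC2-high and 481 cDC1-high genes. At the edge of the rule, Itpr3 at 2.0004 was the last cDC2-high gene taken and A530064D06Rik at 1.9985 the first left out, and on the cDC1 side Cyb5a at -2.0007 was taken and Sh3rf1 at -1.9986 left out. Of the 912 cDC2-high genes, 99 narrowed (10.9%), meaning that the change was called and ran against the subset difference. In 738 (80.9%) the difference stood, meaning that it was called in the same direction with the transgene while the change was not called. Another 2 widened and 73 met none of these rules. Without Cre-negative cDC1 replicate 2, 61 cDC2-high and 20 cDC1-high genes narrowed, and without Cre-negative cDC2 replicate 1, 17 cDC1-high genes did. Of the 481 cDC1-high genes, 45 narrowed (9.36%), 364 stood (75.7%), 4 widened and 68 met none of the rules. Over all tested genes the change was called for 2.01%. That share counts either direction and includes genes without a subset difference to narrow, so it is not a like measure. A standing gene is one whose change was not called, which does not show that its difference was equal.

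Narrowing did not end most of these differences. Of the 99 narrowed cDC2-high genes, 90 were still called higher in cDC2 with the transgene and 9 were not called. Of the 45 narrowed cDC1-high genes, 38 were still called lower in cDC2, 6 were not called, and 1, Plcb4, was called in the opposite direction. The Cre effect within cDC1 was called for 98 of the 99 narrowed cDC2-high genes and within cDC2 for none of them. Among the 45 narrowed cDC1-high genes it was called within cDC1 for 34, within cDC2 for 4, including 1 gene called in both, and in neither for 8.

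Over all 912 cDC2-high genes the median subset difference was 2.78 with the transgene and 3.63 without Cre, with a median change of -0.62, which was -0.99 without Cre-negative cDC1 replicate 1. The median Cre effect on these genes was 0.02 in cDC2 and 0.61 in cDC1. Over the 481 cDC1-high genes the medians were -2.42 and -2.98, with a median change of 0.70 and median Cre effects of 0.09 in cDC2 and -0.56 in cDC1. With genes at 0 counts in a whole group set to the limit that 3 counts per library allow, the medians were 2.61 and 3.20 for cDC2-high genes and -2.28 and -2.92 for cDC1-high genes. The same medians over all tested genes were 0.03 and 0.05.

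The scatter of both differences shows most subset genes near the line of equal differences, and the called changes to the side of smaller differences with the transgene.

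**Figure D1:**
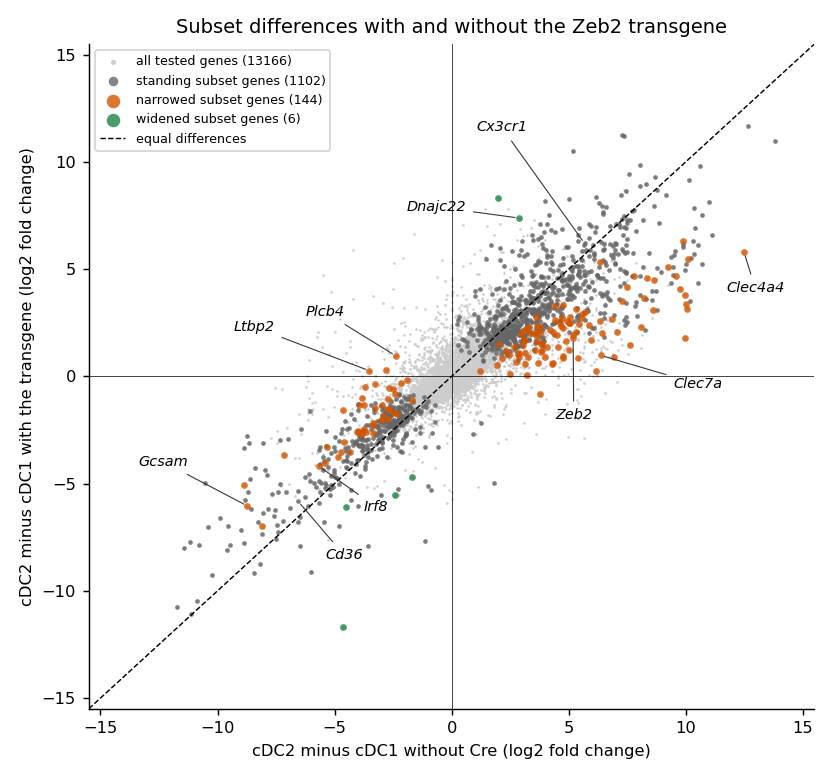
Subset difference (log2 fold change, cDC2 over cDC1) in Cre-positive mice with the transgene (vertical axis) and in Cre-negative mice (horizontal axis) for 13166 tested genes. The 144 narrowed genes lie between the dashed line of equal differences and the horizontal axis, or just across it, the 6 widened genes lie beyond the line, and genes with a group at 0 counts are drawn at fitted values that are no bound.

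By library, the mean log2 CPM of the 912 cDC2-high genes was 2.93, 2.96, 3.00 and 3.01 in Cre-positive cDC2, and -0.01, -0.07, -0.45 and -0.53 in Cre-positive cDC1. It was 2.96 and 3.03 in Cre-negative cDC2, and -0.76 and -1.16 in Cre-negative cDC1. The Cre-positive cDC1 libraries all stood above the Cre-negative cDC1 libraries, and replicates 1 and 2 stood above replicates 3 and 4, while the cDC2 libraries with and without Cre overlapped. For the 481 cDC1-high genes the mean was 0.19, 0.33, 0.07 and 0.12 in Cre-positive cDC2, and 2.85, 2.85, 3.00 and 3.08 in Cre-positive cDC1. It was 0.18 and 0.17 in Cre-negative cDC2, and 3.62 and 3.73 in Cre-negative cDC1. Here the Cre-positive cDC1 libraries all stood below the Cre-negative ones, and the 2 cDC2 groups overlapped again. With Cre-positive replicates 3 and 4 alone, an alternative chosen after seeing the data, 51 cDC2-high and 25 cDC1-high genes narrowed and the median changes were -0.30 and 0.48. In bulk libraries a smaller share of cells with a gene's RNA and less RNA per cell cannot be told apart.

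**Figure D2:**
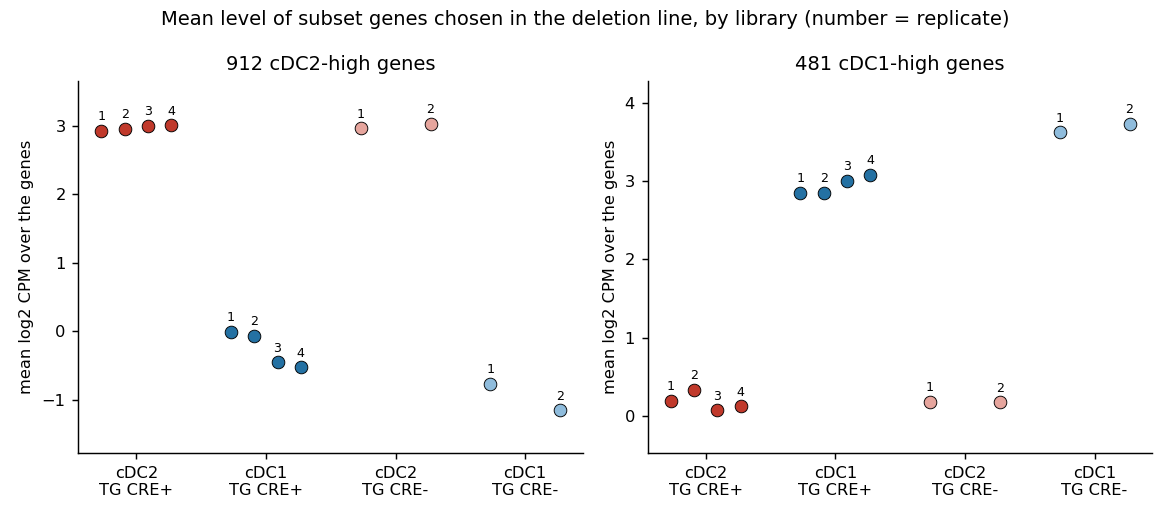
Mean log2 CPM per library of the 912 cDC2-high genes (left) and the 481 cDC1-high genes (right), with 4 Cre-positive libraries per subset followed by 2 Cre-negative ones and the replicate number above each point. The cDC2 groups lie at about the same height in each panel, whereas the Cre-positive cDC1 libraries lie between -0.53 and -0.01 (left) and between 2.85 and 3.08 (right), each nearer to cDC2 than the Cre-negative cDC1 libraries.

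Zeb2 itself (chromosome 2, 44983632 to 45117395, GRCm38) stayed higher in cDC2 when both subsets carried the transgene. It had 151, 152, 148 and 159 CPM in Cre-positive cDC2, and 44.3, 45.0, 46.3 and 41.4 CPM in Cre-positive cDC1. It had 104 and 104 CPM in Cre-negative cDC2, and 3.26 and 2.36 CPM in Cre-negative cDC1. The groups did not overlap, and every Cre-positive cDC1 library lay below every Cre-negative cDC2 library. The subset difference was 1.79 ± 0.24 (SE, adjusted p = 1.26e-06), or 3.45-fold, with the transgene, and 5.19 ± 0.42 (adjusted p = 9.15e-10), or 36.6-fold, without Cre. The change was -3.41 ± 0.46 (adjusted p = 1.26e-04). The table has a single row for Zeb2, so RNA of the transgene and of the endogenous gene cannot be told apart. The Cre effect on Zeb2 was 3.96 ± 0.39 in cDC1 (adjusted p = 3.88e-07) and 0.56 ± 0.29 in cDC2 (adjusted p = 0.618).

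Id2 (chromosome 12, 25093799 to 25097140, GRCm38), the gene that the series title places under Zeb2, kept its higher level in cDC1. It had 321, 260.1, 346 and 356 CPM in Cre-positive cDC2, and 829, 879, 858 and 800.2 CPM in Cre-positive cDC1. It had 418 and 331 CPM in Cre-negative cDC2, and 1219.8 and 1314 CPM in Cre-negative cDC1. The subsets did not overlap in either setting, and Cre-positive cDC1 lay below Cre-negative cDC1 in every library. The subset difference was -1.39 ± 0.13 (adjusted p = 4.11e-09) with the transgene and -1.76 ± 0.18 (adjusted p = 4.87e-08) without Cre. The change of 0.37 ± 0.22 was not called (adjusted p = 0.513), with a 95% interval of -0.09 to 0.82. Id2 fell by 0.59 in cDC1 with Cre (adjusted p = 0.0168), a call lost without either Cre-negative cDC1 replicate (adjusted p up to 0.149), and its Cre effect in cDC2 was -0.22 ± 0.15 (adjusted p = 0.744). For each of Zeb2 and Id2, the exact two-sided permutation test of the 4 Cre-positive cDC2 against the 4 Cre-positive cDC1 libraries gave p = 0.0286, the smallest that its 70 assignments allow. Tcf4, the E protein gene most associated with plasmacytoid dendritic cells, had a difference of 1.94 ± 0.15 with the transgene and 1.92 ± 0.22 without Cre, and its change of 0.02 ± 0.26 had an interval of -0.53 to 0.56 and took either sign across alternatives. Of the 7 tested Id and E protein genes, 2 were cDC2-biased and 2 cDC1-biased with the transgene, 1 and 3 without Cre, and none had a called change by edgeR or DESeq2, with 1 at an unadjusted p under 0.05.

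**Figure D3:**
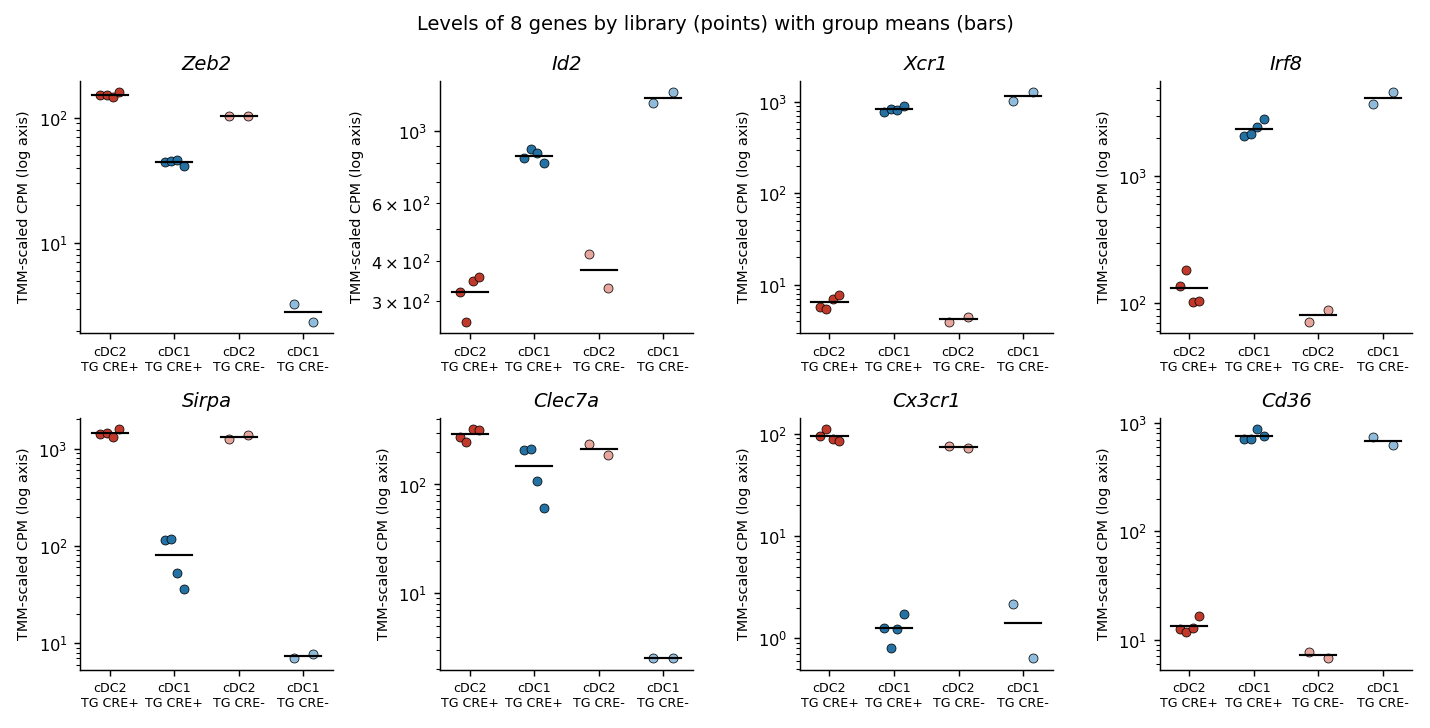
TMM-scaled CPM of 8 genes in each library (points) with group means (bars), on log axes that differ between panels, with Cre-positive cDC2 and cDC1 left of Cre-negative cDC2 and cDC1. Zeb2, Sirpa and Clec7a are far higher in Cre-positive cDC1 than in Cre-negative cDC1, whereas the cDC1 levels of Cx3cr1 and Cd36 overlap between mice with and without Cre.

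The genes that define cDC1 all remained cDC1 genes. All 20 listed cDC1 identity genes were lower in cDC2, both with the transgene and without Cre, with median differences of -4.92 and -5.68. The difference was smaller with the transgene for 18 of the 20, against 7670 of the 13166 tested genes. The Cre effect in cDC1 was called downward for 10 of the 20 and upward for 0, against 3.42% downward over all tested genes. The change passed an unadjusted p under 0.05 for 15 of the 20, and DESeq2 called it for 8. The difference narrowed for 6 of the 20 and the change was not called for 14, and without Cre-negative cDC2 replicate 1 it narrowed for 3. Irf8 (chromosome 8, 120736358 to 120756694), the factor on which cDC1 development depends, had 136, 182, 102 and 104 CPM in Cre-positive cDC2, and 2064, 2157, 2450.4 and 2829 CPM in Cre-positive cDC1. It had 71.8 and 89.3 CPM in Cre-negative cDC2, and 3683 and 4574 CPM in Cre-negative cDC1. The subsets stayed far apart, with Cre-positive cDC1 below Cre-negative cDC1 in every library. The difference was -4.18 ± 0.17 with the transgene and -5.68 ± 0.26 without Cre, and the change was 1.50 ± 0.26 (adjusted p = 0.00145). Irf8 fell by 0.80 with Cre in cDC1 (adjusted p = 0.00537, and 0.141 without Cre-negative cDC1 replicate 2, at -0.63), and its Cre effect in cDC2 was 0.70 ± 0.19 (adjusted p = 0.132).

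Gcsam, a signalling gene first known from germinal centre B cells, had a larger change in value than Irf8. It had 0.866, 2.11, 0.912 and 0.642 CPM in Cre-positive cDC2, and 70.6, 79.3, 85.3 and 64.0 CPM in Cre-positive cDC1. It had 0.448 and 1.52 CPM in Cre-negative cDC2, and 406 and 445 CPM in Cre-negative cDC1. The narrowing lay in cDC1, where Gcsam fell by 2.51 with Cre (adjusted p = 1.68e-08), and the change was 2.70 ± 0.43 (adjusted p = 7.95e-04). Tlr11, an endosomal receptor for apicomplexan profilin, had 43.4 to 61.2 CPM in Cre-positive cDC2 and 288 to 339.5 CPM in Cre-positive cDC1, against 28.7 to 42.3 and 493 to 564 CPM without Cre, with a change of 1.24 ± 0.21 (adjusted p = 0.00145).

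Xcr1, the chemokine receptor used to identify cDC1, had 5.73, 5.49, 7.01 and 7.74 CPM in Cre-positive cDC2, and 778, 835, 805 and 889 CPM in Cre-positive cDC1. It had 3.96 and 4.40 CPM in Cre-negative cDC2, and 1022 and 1259.5 CPM in Cre-negative cDC1. All groups were separate, by -6.99 ± 0.16 with the transgene and -8.09 ± 0.24 without Cre, and the change was 1.10 ± 0.24 (adjusted p = 0.0138). That call was lost without Cre-negative cDC1 replicate 2 or either Cre-negative cDC2 replicate, with changes of 0.93 to 1.18. Clec9a, the receptor for actin of dead cells, changed by 1.38 ± 0.32 (adjusted p = 0.0238), a call lost without Cre-negative cDC1 replicate 2, Cre-negative cDC2 replicate 1 or Cre-positive cDC2 replicate 2. Ly75 (DEC-205, an endocytic receptor) changed by 1.12 ± 0.28 (adjusted p = 0.0375). Of the 12 fits without a single library, its call held only in those without Cre-positive cDC1 replicate 1 or 3 or Cre-positive cDC2 replicate 2. In all 12 such fits the changes of Xcr1, Clec9a and Ly75 stayed positive.

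Other cDC1 genes stood. Naaa, a lysosomal amidase, had 82.4, 82.5, 63.1 and 69.7 CPM in Cre-positive cDC2, and 1937, 2012, 2226 and 3107 CPM in Cre-positive cDC1. It had 69.5 and 69.3 CPM in Cre-negative cDC2, and 2916 and 3635 CPM in Cre-negative cDC1. Cre-positive and Cre-negative cDC1 overlapped, and the change of 0.60 ± 0.20 was not called (adjusted p = 0.158, interval 0.18 to 1.02), although it was called without Cre-positive cDC1 replicate 4, at 0.77. Within cDC1, Naaa fell by 0.50 with Cre (adjusted p = 0.032). That call was lost without Cre-negative cDC1 replicate 2 or Cre-positive cDC1 replicate 1, 2 or 3. Cd36, a scavenger receptor, had 12.4, 11.8, 12.8 and 16.4 CPM in Cre-positive cDC2, and 707, 716, 873 and 755 CPM in Cre-positive cDC1. It had 7.77 and 6.73 CPM in Cre-negative cDC2, and 734 and 626 CPM in Cre-negative cDC1. Its cDC1 levels overlapped between mice with and without Cre, and the change of 0.72 ± 0.26 was not called (adjusted p = 0.198, interval 0.18 to 1.26) but was with the replicate block, at 0.71 (adjusted p = 0.0495).

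Cadm1, an adhesion molecule of cDC1, differed by -5.20 ± 0.20 with the transgene and -5.41 ± 0.29 without Cre, a change of 0.20 ± 0.30 with an interval of -0.41 to 0.82 whose sign turned to -0.02 without Cre-positive cDC1 replicates 1 and 2. Cd207 (langerin) had 0, 0, 0.0829 and 0 CPM in Cre-positive cDC2, and 43.9, 51.4, 53.0 and 62.5 CPM in Cre-positive cDC1. The ratio was 2766 in favour of cDC1, with a 95% counting interval of 765 to 22848. Without Cre it had 0.0747 and 0 CPM in cDC2, and 58.3 and 125 CPM in cDC1, a ratio of 2434 with an interval of 673 to 20108. Fzd1, a Wnt receptor, had 0.226, 0.978, 0 and 0.264 CPM in Cre-positive cDC2 and 212, 211, 239.6 and 275 CPM in Cre-positive cDC1, against 0.261 and 0.141 CPM and 209.7 and 281 CPM without Cre. Its cDC1 levels overlapped with and without Cre. Dkk3, a secreted glycoprotein of the Dickkopf family, stood by the rule but had fallen within cDC1. It had 0 CPM in all 4 Cre-positive cDC2 libraries, and 4.46, 4.53, 6.90 and 11.3 CPM in Cre-positive cDC1, at least 58.6-fold higher in cDC1 with the floor at 3 counts per library. Without Cre it had 79.3 and 77.3 CPM in cDC1, above every Cre-positive cDC1 library, and the Cre effect in cDC1 was -3.51 ± 0.30 (adjusted p = 3.85e-07).

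Outside the identity list, the cDC1-high genes with the largest called changes were Mab21l3, Ltbp2, Ttc39a, Plcb4, Nid2 and Sema4c. Ltbp2, an extracellular matrix protein of the latent TGF-beta binding family, had no called difference left. It had 2.98, 2.60, 2.99 and 4.38 CPM in Cre-positive cDC2, and 2.48, 2.16, 2.87 and 3.19 CPM in Cre-positive cDC1. It had 2.99 and 3.10 CPM in Cre-negative cDC2, and 31.9 and 38.3 CPM in Cre-negative cDC1. The Cre-positive subsets overlapped, at a difference of 0.27 ± 0.22 (adjusted p = 0.330), while the difference without Cre was -3.52 ± 0.31 (adjusted p = 3.94e-09). The change was 3.79 ± 0.38 (adjusted p = 2.54e-06), and Ltbp2 fell by 3.70 in cDC1 (adjusted p = 1.32e-09).

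Plcb4, a phospholipase C, was called in opposite directions with the transgene and without Cre. It had 32.4, 28.2, 29.6 and 37.0 CPM in Cre-positive cDC2, and 16, 13.9, 17.6 and 17.6 CPM in Cre-positive cDC1. It had 2.32 and 2.04 CPM in Cre-negative cDC2, and 11.2 and 11.8 CPM in Cre-negative cDC1. Both pairs of groups were separate, with cDC2 above cDC1 in Cre-positive mice and below it in Cre-negative mice. The difference was 0.96 ± 0.11 (adjusted p = 1.24e-07) with the transgene and -2.40 ± 0.18 (adjusted p = 2.96e-10) without Cre, and the change was 3.36 ± 0.21 (adjusted p = 1.59e-09). Plcb4 was also among the few genes that moved in cDC2, where its Cre effect was 3.86 ± 0.17 (adjusted p = 1.33e-12), against 0.50 ± 0.14 in cDC1 (adjusted p = 0.0290), where the call was lost without either Cre-negative cDC1 replicate or Cre-positive cDC1 replicate 3 or 4.

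Ttc39a, which encodes a tetratricopeptide-repeat protein, fell by 4.06 in cDC1 (adjusted p = 1.32e-09) yet stayed cDC1-high. It had 0.942, 1.28, 0.498 and 0.868 CPM in Cre-positive cDC2, and 8.74, 10.0, 12.2 and 15.3 CPM in Cre-positive cDC1. It had 1.20 and 1.52 CPM in Cre-negative cDC2, and 175 and 212 CPM in Cre-negative cDC1. The change was 3.47 ± 0.52 (adjusted p = 4.05e-04). Nid2, a basement membrane protein, had 0.912 to 2.11 CPM in Cre-positive cDC2 and 1.39 to 2.66 CPM in Cre-positive cDC1, which overlapped, against 0.523 to 0.951 and 9.36 to 10.1 CPM without Cre. Its change of 3.23 ± 0.68 (adjusted p = 0.00990) was not called without Cre-negative cDC2 replicate 1, at 2.87. Sema4c, a semaphorin, changed by 3.10 ± 0.80 (adjusted p = 0.0431), a call that, among the fits without a single library, held only without Cre-positive cDC1 replicate 2 or 3 or Cre-positive cDC2 replicate 1 or 4. The change in Mab21l3 was 3.83 ± 1.00 (adjusted p = 0.0466), a call that held in such fits only without Cre-positive cDC1 replicate 4 or Cre-positive cDC2 replicate 3. Without Cre-negative cDC2 replicate 2, which held all counts of Mab21l3 in its group, the size of the change was no longer set by counts.

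The receptor genes Cxcr3, Notch4 and Fcrla narrowed with a called fall in cDC1. Cxcr3, the receptor for interferon-induced chemokines, had 1.85, 4.44, 2.65 and 2.64 CPM in Cre-positive cDC2, and 32.2, 34.6, 33.3 and 34.4 CPM in Cre-positive cDC1. It had 3.96 and 5.07 CPM in Cre-negative cDC2, and 116 and 122 CPM in Cre-negative cDC1. The groups were separate in both settings, and Cxcr3 fell by 1.82 in cDC1 (adjusted p = 2.19e-07). Its change of 1.18 ± 0.28 (adjusted p = 0.0274) was lost without either Cre-negative cDC1 replicate, Cre-negative cDC2 replicate 1 or Cre-positive cDC2 replicate 2, and with the replicate number as a block (1.14, adjusted p = 0.0683). Notch4, a Notch receptor, fell by 2.05 in cDC1 (adjusted p = 6.69e-06), and its change of 1.54 ± 0.40 (adjusted p = 0.0440) held, among the fits without a single library, only without Cre-negative cDC1 replicate 1, Cre-negative cDC2 replicate 2, Cre-positive cDC1 replicate 3 or Cre-positive cDC2 replicate 4. Without Cre-negative cDC1 replicate 2, which had 182 CPM against 82.3 CPM in replicate 1, the Notch4 change was 0.85. Fcrla, an intracellular Fc receptor-like protein, had 1.85, 2.97, 1.66 and 3.40 CPM in Cre-positive cDC2, and 3.38, 2.75, 3.84 and 2.90 CPM in Cre-positive cDC1. It had 3.03 and 4.90 CPM in Cre-negative cDC2, and 37.1 and 39.2 CPM in Cre-negative cDC1. The Cre-positive subsets overlapped, Fcrla fell by 3.57 in cDC1 (adjusted p = 4.23e-08), and the change was 2.89 ± 0.47 (adjusted p = 9.21e-04).

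Since ZEB proteins bind E-boxes, the letters CACCTG, or CAGGTG on the other strand, were looked for in 300-base promoter windows from RefSeq (GRCm38.p6), which run from 250 bases before to 50 after the annotated start. Of 32851 windows, 20.2% held the motif. Windows were found for 40 of the 45 narrowed cDC1-high genes, of which 7 held it (17.5%), and for 260 of the 364 standing cDC1-high genes, of which 60 held it (23.1%). Of the narrowed cDC2-high genes, 73 of 99 had a window and 10 held the motif (13.7%), against 112 of 544 standing ones with a window (20.6%). These shares describe letters in a window, and no binding was measured. Of the narrowed cDC1-high genes described above, Ltbp2, Sema4c, Cxcr3 and Fcrla had the motif in the 250 bases before the RefSeq start. For Ltbp2 and Cxcr3 those bases overlapped the gene as GENCODE annotates it, by 41 and 122 bases, so that only Sema4c and Fcrla, whose 250 bases lay before both annotated starts, are shown. They run 5′ to 3′ on the gene's own strand with the motif in capitals, 124 bases before the RefSeq start in Sema4c (chr1:36558382-36558631, minus strand) and 69 bases before it in Fcrla (chr1:170927584-170927833, minus strand). The bases of Sema4c also lie within D430040D24Rik, which GENCODE annotates on the plus strand.
Sema4c: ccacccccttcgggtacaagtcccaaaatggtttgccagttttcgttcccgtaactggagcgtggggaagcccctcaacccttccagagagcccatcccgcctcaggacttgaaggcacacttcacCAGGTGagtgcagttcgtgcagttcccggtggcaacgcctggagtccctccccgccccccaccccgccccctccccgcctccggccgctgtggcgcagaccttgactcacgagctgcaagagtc
Fcrla: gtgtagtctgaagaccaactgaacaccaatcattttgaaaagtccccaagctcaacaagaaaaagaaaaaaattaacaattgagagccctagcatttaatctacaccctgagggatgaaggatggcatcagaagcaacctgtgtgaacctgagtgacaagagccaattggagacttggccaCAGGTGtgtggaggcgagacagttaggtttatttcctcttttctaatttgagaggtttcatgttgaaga

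Genes that define cDC2 also kept their side. Of the 20 listed cDC2 identity genes, 19 were higher in cDC2 with the transgene and 1, Clec12a, was lower, the same counts as without Cre. Their median difference was 4.01 with the transgene and 6.09 without Cre. The difference narrowed for 10 of the 20 and the change was not called for the other 10. The narrowed ones were Sirpa, Itgam, Clec4a4, Cd4, Cd300a, Clec4a2, Clec7a, Csf1r, Sirpb1a and S100a4, and the Cre effect in cDC1 was called for 13 of the 20, all upward, and in cDC2 for none.

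Sirpa (chromosome 2, 129592835 to 129632228), the inhibitory receptor commonly used to identify cDC2, had 1409.8, 1443, 1301 and 1581 CPM in Cre-positive cDC2, and 115, 117, 53.1 and 36.2 CPM in Cre-positive cDC1. It had 1266 and 1373 CPM in Cre-negative cDC2, and 6.99 and 7.78 CPM in Cre-negative cDC1. The cDC2 groups overlapped in range while every Cre-positive cDC1 library lay above both Cre-negative ones, replicates 1 and 2 most. The difference was 4.16 ± 0.33 with the transgene and 7.48 ± 0.56 without Cre, and the change was -3.32 ± 0.55 (adjusted p = 0.00119). Cd4 had 336, 326, 323 and 389.9 CPM in Cre-positive cDC2, and 87.6, 68.3, 57.4 and 52.4 CPM in Cre-positive cDC1. It had 238 and 277 CPM in Cre-negative cDC2, and 8.36 and 11.6 CPM in Cre-negative cDC1, and its change was -2.32 ± 0.29 (adjusted p = 6.05e-05). Itgam (CD11b) changed by -2.98 ± 0.51 (adjusted p = 0.00140), with 137 to 169 CPM in Cre-positive cDC2 and 10.5 to 39.3 CPM in Cre-positive cDC1. Csf1r, a growth factor receptor of macrophages and their relatives, changed by -1.46 ± 0.23 (adjusted p = 6.04e-04), with 749 to 797 CPM in Cre-positive cDC2 and 66.9 to 89.3 CPM in Cre-positive cDC1.

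Clec7a (chromosome 6, 129461591 to 129472779), which encodes Dectin-1, a receptor for fungal beta-glucans, kept a called but small difference. It had 271, 246, 322 and 314 CPM in Cre-positive cDC2, and 206, 212, 107 and 61.4 CPM in Cre-positive cDC1. It had 235 and 188 CPM in Cre-negative cDC2, and 2.53 and 2.56 CPM in Cre-negative cDC1. The Cre-positive subsets still did not overlap, although cDC1 replicates 1 and 2 reached the cDC2 range of mice without Cre. The difference was 0.98 ± 0.30 (adjusted p = 0.00822) with the transgene and 6.37 ± 0.57 (adjusted p = 4.22e-09) without Cre, and the change was -5.39 ± 0.61 (adjusted p = 1.57e-05). With Cre-positive replicates 1 and 2 alone the difference with the transgene was 0.31 and not called (adjusted p = 0.466). Clec7a rose by 5.84 in cDC1 (adjusted p = 1.85e-07).

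Several C-type lectin receptors lost part of their cDC2 bias. Of 23 tested, 16 were higher and 4 lower in cDC2 with the transgene, against 15 and 4 without Cre. Their median difference was 2.12 with the transgene and 5.87 without Cre, or 4.24 without Cre when members at 0 counts in a group were set to their bound. The change was called downward for 5 and upward for 2, Clec9a and Ly75. Clec4a4 (DCIR2), the lectin recognised by the 33D1 antibody on splenic cDC2, had 149.7, 146, 139.9 and 154 CPM in Cre-positive cDC2, and 3.31, 4.75, 2.17 and 0.840 CPM in Cre-positive cDC1. It had 160.1 and 152 CPM in Cre-negative cDC2, and 0 and 0.0492 CPM in Cre-negative cDC1. The difference was 5.78 ± 0.27 with the transgene. Without Cre a single count in cDC1 put cDC2 7042 times higher (95% counting interval 1264 to 278160), and the change was called (adjusted p = 5.35e-04). Clec4a1, near it on chromosome 6, changed by -4.58 ± 0.64 (adjusted p = 2.05e-04), with 146 to 163 CPM in Cre-positive cDC2 and 4.49 to 20.4 CPM in Cre-positive cDC1. The Clec4a genes are close relatives, so reads may have been split between them and their single values are uncertain.

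Of 11 tested SIRP and Cd300 receptors, inhibitory and activating receptors of myeloid cells, 10 were higher and 1 lower in cDC2 with the transgene, against 9 and 0 without Cre. The median difference was 2.76 with the transgene and 5.08 without Cre, and the difference narrowed for 6 of the 11 and had no called change for 5. Cd300a had 374, 389, 434 and 406 CPM in Cre-positive cDC2, and 297, 277, 222 and 225 CPM in Cre-positive cDC1. It had 341 and 426 CPM in Cre-negative cDC2, and 64.5 and 50.5 CPM in Cre-negative cDC1. The difference with the transgene was 0.65 ± 0.11, or 1.57-fold, against 2.74 ± 0.17, or 6.66-fold, without Cre, and the change was -2.09 ± 0.20 (adjusted p = 1.49e-06).

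Cd300lf, on the same stretch of chromosome 11, changed by -2.31 ± 0.34 (adjusted p = 3.72e-04). Cd300ld had 40.3, 40.4, 56.3 and 58.9 CPM in Cre-positive cDC2, and 4.35, 4.36, 1.47 and 1.45 CPM in Cre-positive cDC1. The difference was 4.09 ± 0.30 with the transgene, against a ratio of 973 (95% counting interval 269 to 8037) on 2 cDC1 counts without Cre, and the change was called (adjusted p = 0.00140, and 0.0146 without Cre-negative cDC1 replicate 2, which held both of those counts). Sirpb1a changed by -4.59 ± 0.60 (adjusted p = 9.77e-05), with 208 to 238 CPM in Cre-positive cDC2 and 2.72 to 6.91 CPM in Cre-positive cDC1, against 186 to 207 and 0.148 to 0.201 CPM without Cre. The Sirpb1 and Cd300ld families hold near-identical genes, so these values too are uncertain.

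Among the cDC2-high genes with the largest called changes were also Ptger3, Cd101 and Ifit3b. Ptger3, a prostaglandin E2 receptor, had 88.0, 90.3, 95.1 and 97.6 CPM in Cre-positive cDC2, and 14.3, 14.4, 5.62 and 1.74 CPM in Cre-positive cDC1. It had 67.2 and 78.9 CPM in Cre-negative cDC2, and 0.121 and 0 CPM in Cre-negative cDC1, so that cDC2 stood 1103 times higher (95% counting interval 377 to 5349). The Cre-positive cDC1 libraries ran from 1.74 CPM in replicate 4 to 14.4 CPM in replicate 2, and the call of the change (adjusted p = 0.00413) was lost without Cre-negative cDC1 replicate 2 (adjusted p = 0.0606) but held without replicate 1, which held all counts of its group (adjusted p = 0.0362). Cd101, an immunoglobulin-family membrane protein, changed by -5.50 ± 0.77 (adjusted p = 2.05e-04). It had 14.9 to 25.5 CPM in Cre-positive cDC2 and 0.840 to 3.02 CPM in Cre-positive cDC1, against 32.1 to 40.6 and 0 to 0.161 CPM without Cre. Without Cre-negative cDC1 replicate 1, which held all counts of Cd101 in that group, the change was still called (adjusted p = 0.00221) but its size was no longer set by counts.

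Other cDC2 genes stood, some of them at or near 0 in cDC1. Cx3cr1, the fractalkine receptor, had 95.2, 111, 89.1 and 85.6 CPM in Cre-positive cDC2, and 1.26, 0.805, 1.24 and 1.74 CPM in Cre-positive cDC1. It had 76.7 and 72.7 CPM in Cre-negative cDC2, and 2.17 and 0.640 CPM in Cre-negative cDC1. The cDC1 libraries with and without Cre overlapped, and the change of 0.52 ± 0.50 was not called (adjusted p = 0.729, interval -0.52 to 1.57). Its sign turned without Cre-negative cDC1 replicate 1, at -0.67. Cd7 changed by -1.24 ± 0.43 without a call (adjusted p = 0.170, interval -2.13 to -0.34), and the call was made without Cre-positive cDC1 replicate 4, at -1.45.

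Dscam, a neuronal adhesion molecule, had 52.8, 56.3, 64.1 and 80.4 CPM in Cre-positive cDC2, and 0.108, 0, 0 and 0 CPM in Cre-positive cDC1. In CPM that was 2360 times higher in cDC2 (95% counting interval 807 to 11446), against at least 516-fold without Cre, where cDC1 had 0 counts. Scn3a, a sodium channel subunit, had 38.1, 47.4, 49.2 and 44.8 CPM in Cre-positive cDC2, and 0, 0.0424, 0 and 0 CPM in Cre-positive cDC1, from a single count. Mmp9, the secreted gelatinase B, had 141, 189, 332 and 317 CPM in Cre-positive cDC2, and 0.288, 0, 0 and 0.0869 CPM in Cre-positive cDC1. Its difference was 11.21 ± 0.64 with the transgene, and the change was not called (adjusted p = 0.144), with a sign that turned without Cre-negative cDC1 replicate 1. Clec10a, a galactose-type lectin, had 19.4, 21.0, 15.0 and 20.2 CPM in Cre-positive cDC2, and 0.144, 0, 0 and 0 CPM in Cre-positive cDC1. These 4 genes were at or near 0 in every Cre-positive cDC1 library.

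The plot of single genes sets narrowed genes beside those with no called change.

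**Figure D4:**
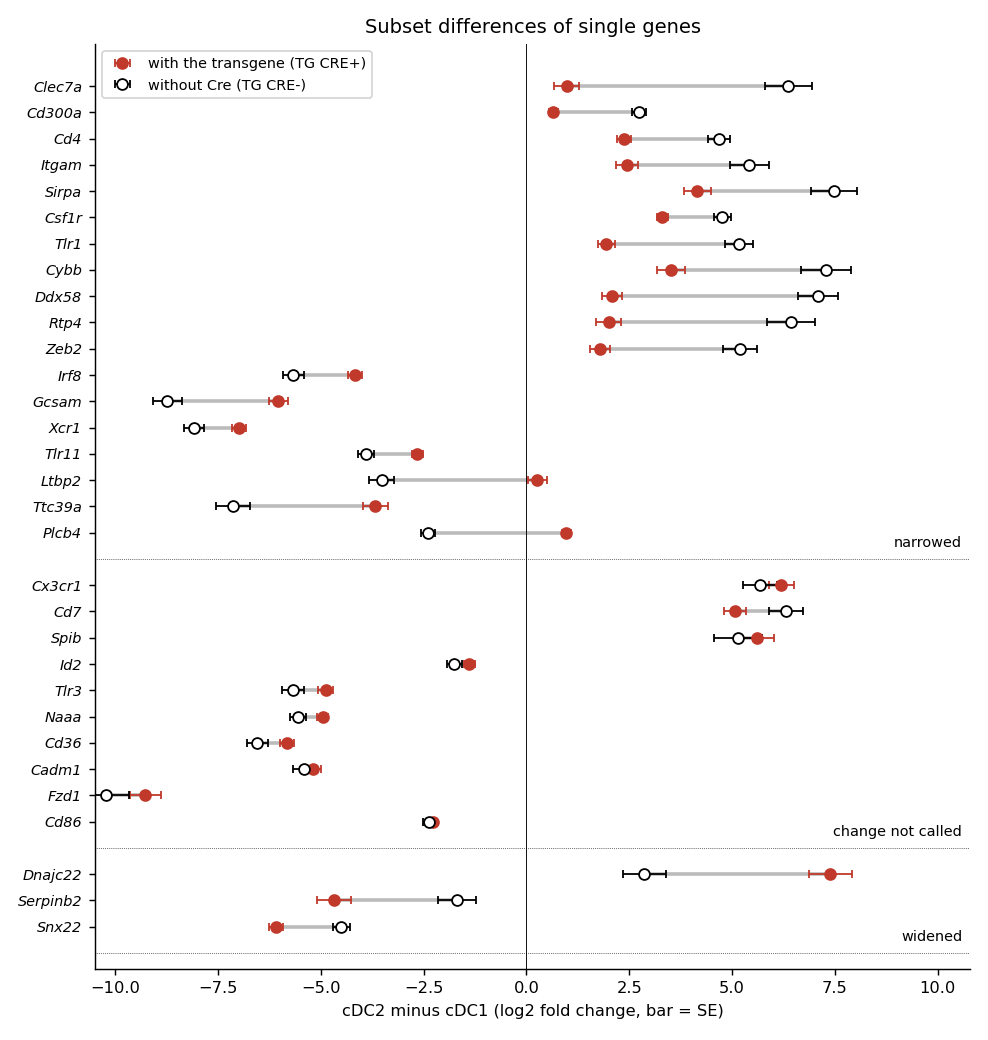
Subset difference (log2 fold change, cDC2 over cDC1, bars show the SE of the fit) of single genes with the transgene (filled) and without Cre (open), grouped by whether the difference narrowed, was not called changed, or widened. The filled point of Clec7a lies at 0.98 and its open point at 6.37, whereas the points of Cx3cr1 lie at 6.20 and 5.68.

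The level of cDC2 genes in Cre-positive cDC1 was not a fixed share of the cDC2 level. Over 189 cDC2-high genes with at least 50 CPM in cDC2, the median level in Cre-positive cDC1 libraries was 20.3, 18.3, 14.6 and 11.7% of the Cre-positive cDC2 mean, against 8.72 and 8.44% in Cre-negative cDC1. Gene by gene the share in Cre-positive cDC1 differed widely. It was 71.2, 73.5, 37.2 and 21.3% for Clec7a, 74.2, 69.3, 55.4 and 56.2% for Cd300a, and 29.0, 29.5, 30.3 and 27.1% for Zeb2. It was 8.0, 8.18, 3.71 and 2.52% for Sirpa, 1.32, 0.846, 1.30 and 1.83% for Cx3cr1, and 0.170, 0, 0 and 0% for Dscam. Several of these genes were named for their differences or changes, so their range does not stand for all genes. In Cre-negative cDC1 the share was 16.1 and 12.6% for Cd300a and 0.878 and 0.888% for Clec7a. Over the 189 genes, the 5th and 95th percentiles were 1.91 and 47.1% in Cre-positive cDC1 replicate 1 and 0.731 and 38.4% in replicate 4. They were 0.439 and 26.7%, and 0.166 and 29.2%, in the Cre-negative cDC1 libraries. The share of Clec7a and Sirpa was higher in replicates 1 and 2 than in 3 and 4, while that of Zeb2 was not.

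Among 28 transcription factors of dendritic cell lineages, 17 were higher and 6 lower in cDC2 with the transgene, against 14 and 5 without Cre, with medians of 0.52 and 0.38. The change was called downward for Zeb2 and Prdm1 and upward for Irf8, and not called for 25. Prdm1 (Blimp-1), a repressor, had 32.7, 21.9, 38.4 and 43.3 CPM in Cre-positive cDC2, and 17.4, 18.8, 14.2 and 7.13 CPM in Cre-positive cDC1. It had 14.4 and 23.2 CPM in Cre-negative cDC2, and 0.241 and 0.985 CPM in Cre-negative cDC1. The change was -3.75 ± 0.72 (adjusted p = 0.00387), and the call was lost without Cre-negative cDC1 replicate 1, at -3.01 (adjusted p = 0.0624). With Cre-positive replicates 1 and 2 alone its difference with the transgene was 0.59 and not called.

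Irf4, the factor most tied to cDC2, stood by the rule. It had 155, 151, 208 and 219 CPM in Cre-positive cDC2, and 17.4, 13.9, 14.8 and 4.81 CPM in Cre-positive cDC1. It had 158 and 139 CPM in Cre-negative cDC2, and 4.02 and 5.42 CPM in Cre-negative cDC1. The change was -1.13 ± 0.55 (adjusted p = 0.387, interval -2.27 to 0.01), and its Cre effect in cDC1 was 1.43 ± 0.44 (adjusted p = 0.0484), a call that held in only 1 of the 12 fits without a single library, that without Cre-positive cDC1 replicate 4. Spib, an Ets factor, differed by 5.61 ± 0.42 with the transgene and 5.14 ± 0.58 without Cre, with an interval of the change of -0.89 to 1.83. Mycl, a Myc-family gene of cDC1, had 256, 265, 206 and 189 CPM in Cre-positive cDC2, and 556, 569.6, 562 and 658 CPM in Cre-positive cDC1. It had 272 and 249 CPM in Cre-negative cDC2, and 958 and 1134 CPM in Cre-negative cDC1. Mycl fell by 0.83 in cDC1 (adjusted p = 9.63e-05), and its change of 0.65 ± 0.18 was not called (adjusted p = 0.0643) but was called by DESeq2 and without replicate 4 of either Cre-positive subset.

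Of 17 genes for Toll-like receptors and their partners, 7 were higher and 4 lower in cDC2 with the transgene, against 6 and 5 without Cre. Over all tested genes, 26.8% were higher and 26% lower with the transgene. Tlr1 and Tlr7 narrowed on the cDC2 side and Tlr11 on the cDC1 side. Tlr1, which pairs with Tlr2 to sense lipopeptides, had 139, 132, 131 and 146 CPM in Cre-positive cDC2, and 42.9, 54.4, 26.0 and 19.6 CPM in Cre-positive cDC1. It had 151 and 144 CPM in Cre-negative cDC2, and 3.74 and 4.48 CPM in Cre-negative cDC1. The subsets were separate in both settings, and the change was -3.23 ± 0.38 (adjusted p = 2.53e-05).

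Tlr7, the endosomal receptor for single-stranded RNA, had 87.2, 92.5, 99.3 and 89.1 CPM in Cre-positive cDC2, and 5.21, 4.28, 1.09 and 0.522 CPM in Cre-positive cDC1. Its change of -4.18 ± 0.94 (adjusted p = 0.0172) was lost without either Cre-negative cDC1 replicate, at -4.44 and -4.01, and with the replicate block, at -4.0 (adjusted p = 0.126). Tlr3, the receptor for double-stranded RNA, fell by 1.20 in cDC1 (adjusted p = 1.08e-04), with 129 to 203 CPM in Cre-positive and 363 to 380.2 CPM in Cre-negative cDC1. Its change of 0.79 ± 0.29 was not called (adjusted p = 0.202, interval 0.19 to 1.39). Tlr12, the partner of Tlr11, changed by 1.09 ± 0.32 without a call (adjusted p = 0.0905, interval 0.42 to 1.76), and was called by DESeq2 and without Cre-positive cDC2 replicate 4. Within cDC1, Tlr12 fell by 0.71 with Cre (adjusted p = 0.0427). That call was lost without Cre-negative cDC1 replicate 2 or Cre-positive cDC1 replicate 1, 2 or 3.

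Interferon response genes lost much of their cDC2 bias. Of 24 tested, 11 were higher and 5 lower in cDC2 with the transgene, against 17 and 4 without Cre, with medians of 0.41 and 1.89. The change was called downward for 11 of the 24 and upward for none, against 1.18% downward over all tested genes. The Cre effect in cDC1 was called upward for 14, against 3.58% over all tested genes. Without Cre-negative cDC1 replicate 2, or without Cre-negative cDC2 replicate 1, 8 of the 24 had a called change. Ddx58 (RIG-I), a cytosolic RNA sensor, had 77.1, 64.5, 72.4 and 79.5 CPM in Cre-positive cDC2, and 27.3, 18.9, 14.5 and 9.07 CPM in Cre-positive cDC1. It had 75.9 and 81.6 CPM in Cre-negative cDC2, and 0.522 and 0.640 CPM in Cre-negative cDC1. The cDC2 libraries overlapped, all Cre-positive cDC1 libraries lay above the Cre-negative ones, and the change was -5.01 ± 0.54 (adjusted p = 9.05e-06).

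Rtp4, an interferon-induced transport protein, had 49.3, 40.7, 49.6 and 46.1 CPM in Cre-positive cDC2, and 17.8, 16.8, 6.90 and 5.04 CPM in Cre-positive cDC1, against 49.6 to 60.6 and 0.246 to 0.964 CPM without Cre. Its change was -4.43 ± 0.66 (adjusted p = 3.99e-04). Oasl2 had 35.6, 25.5, 33.4 and 30.2 CPM in Cre-positive cDC2, and 24.7, 23.2, 8.57 and 9.01 CPM in Cre-positive cDC1, against 34.6 to 41.0 and 1.37 to 1.38 CPM without Cre. The change was -3.84 ± 0.52 (adjusted p = 1.25e-04), and with Cre-positive replicates 1 and 2 alone its difference with the transgene was 0.35 and not called. Ifit3b had 4.52, 4.78, 5.60 and 4.45 CPM in Cre-positive cDC2, and 7.59, 4.11, 2.29 and 2.09 CPM in Cre-positive cDC1, which overlapped, and its change was -5.90 ± 0.95 (adjusted p = 8.65e-04). Ifit3 and Ifit3b are near-identical, so the value is uncertain, and without Cre-negative cDC1 replicate 1, which held all counts of its group, the size of the change was no longer set by counts. Ifih1 (MDA5), the partner sensor of Ddx58, stood at 1.15 ± 0.13 with the transgene and 1.88 ± 0.19 without Cre, with a change of -0.73 ± 0.22 that was not called (adjusted p = 0.102, interval -1.19 to -0.26). Within cDC1, Ifih1 rose by 0.88 with Cre (adjusted p = 0.00141).

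Cell cycle genes were mostly lower in cDC2 with the transgene. Of 24 tested, none was higher and 20 were lower in cDC2 with the transgene, against 0 and 3 without Cre. The medians were -0.66 and -0.13. Over all tested genes, 26% were lower with the transgene and 20.6% without Cre. None of the 24 had a called change by edgeR or DESeq2, with 12 at an unadjusted p under 0.05, and the Cre effect in cDC1 was called upward for 11. Cdc20, an activator of the anaphase-promoting complex, had 22.2, 20.7, 29.0 and 19.9 CPM in Cre-positive cDC2, and 49.1, 54.2, 49.8 and 51.5 CPM in Cre-positive cDC1. It had 18.2 and 19.3 CPM in Cre-negative cDC2, and 37.5 and 30.8 CPM in Cre-negative cDC1, with a change of -0.29 ± 0.31 (adjusted p = 0.752, interval -0.93 to 0.34). Mcm5, a subunit of the replicative helicase, differed by -0.70 ± 0.11 (adjusted p = 1.61e-05) with the transgene and -0.20 ± 0.16 (adjusted p = 0.339) without Cre, and the interval of its change was -0.90 to -0.10. With Cre-positive replicates 1 and 2 alone, 8 of the 24 were called lower in cDC2. The summed level was 1369 to 1596 CPM in Cre-positive cDC2 and 1861 to 2543 CPM in Cre-positive cDC1, against 1390 to 1507 CPM and 1400.1 to 1628 CPM without Cre. The 20 calls came from 4 libraries a group and the 3 from 2, so the difference in number was not itself tested.

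Of 20 maturation genes, 13 were cDC2-biased and 3 cDC1-biased with the transgene, against 7 and 5 without Cre, with medians of 1.00 and 0.36. The change was called for Cd200 and Il12b. Cd200, a ligand that restrains myeloid cells, had 25.8, 18.7, 19.1 and 20.0 CPM in Cre-positive cDC2, and 13.6, 13.5, 13.6 and 9.97 CPM in Cre-positive cDC1. It had 14.5 and 13.7 CPM in Cre-negative cDC2, and 28 and 24.9 CPM in Cre-negative cDC1. The called difference was 0.73 ± 0.16 (adjusted p = 5.75e-04) with the transgene and -0.91 ± 0.23 (adjusted p = 0.00239) without Cre, so cDC2 stood above cDC1 in Cre-positive mice and below it in Cre-negative mice. The change was 1.64 ± 0.28 (adjusted p = 0.00134).

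Il12b, the p40 subunit of interleukins 12 and 23, had 18.4, 13.4, 18.2 and 24.8 CPM in Cre-positive cDC2, and 48.4, 54.3, 16.6 and 31.3 CPM in Cre-positive cDC1, which overlapped. It had 7.06 and 3.88 CPM in Cre-negative cDC2, and 76.6 and 76.2 CPM in Cre-negative cDC1. The change of 2.80 ± 0.66 (adjusted p = 0.0241) was lost without any 1 of the 4 Cre-negative libraries, with values of 2.43 to 3.29. The difference with the transgene, -1.01 ± 0.37 (adjusted p = 0.0238), was lost without Cre-positive cDC1 replicate 1 or 2 or Cre-positive cDC2 replicate 2. The costimulatory gene Cd86 stood at -2.29 ± 0.10 with the transgene and -2.38 ± 0.14 without Cre, with an interval of the change of -0.23 to 0.42. Pdcd1lg2 (PD-L2), an inhibitory ligand, stood at 4.18 ± 0.33 and 5.25 ± 0.53, with an interval of -2.32 to 0.18.

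Of 24 cytokine and chemokine genes, 10 were cDC2-biased and 6 cDC1-biased with the transgene, against 8 and 6 without Cre. The change was called upward for Il12b and Cxcl16 and downward for Ccl6. Ccl6 turned round. It had 53.0, 62.7, 72.6 and 76.7 CPM in Cre-positive cDC2, and 129, 148, 102 and 83.8 CPM in Cre-positive cDC1. It had 64.7 and 61.3 CPM in Cre-negative cDC2, and 33.8 and 22 CPM in Cre-negative cDC1. Both pairs of groups were separate, with a difference of -0.80 ± 0.19 (adjusted p = 0.00101) with the transgene and 1.17 ± 0.27 (adjusted p = 0.00130) without Cre. The change was -1.98 ± 0.33 (adjusted p = 0.00126), and with Cre-positive replicates 3 and 4 alone the difference with the transgene was -0.31 and not called. Cxcl9, a ligand of Cxcr3, stood at -3.30 ± 0.17 with the transgene and -3.81 ± 0.25 without Cre, with an interval of the change of -0.07 to 1.08.

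Most antigen presentation genes had no called change, like most tested genes, of which 2.01% had one. Of 17 genes of MHC class II presentation, 8 were higher and 2 lower in cDC2 with the transgene, against 8 and 3 without Cre, with medians of 0.18 and 0.13. Lgmn, the lysosomal protease legumain, was the member whose change was called. It had 99.7, 86.2, 97.8 and 98.0 CPM in Cre-positive cDC2, and 98.3, 87.2, 65.2 and 79.0 CPM in Cre-positive cDC1, which overlapped. It had 81.0 and 87.6 CPM in Cre-negative cDC2, and 38.3 and 27.9 CPM in Cre-negative cDC1. The change of -1.14 ± 0.27 (adjusted p = 0.0239) was lost without Cre-negative cDC1 replicate 2 or either Cre-negative cDC2 replicate, with values of -1.19 to -0.94. H2-DMb2, a chain of the peptide-loading molecule H2-M, stood at 2.08 ± 0.09 with the transgene and 2.60 ± 0.14 without Cre, with an interval of the change of -0.84 to -0.19, and its change was called without Cre-positive cDC1 replicate 3, at -0.61.

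Of 22 genes of MHC class I presentation and cross-presentation, 4 were higher and 13 lower in cDC2 with the transgene, against 3 and 14 without Cre, with medians of -0.41 and -0.78. The difference was smaller with the transgene for 19 of the 22, against 7670 of the 13166 tested genes. The Cre effect in cDC1 was called downward for 5 and upward for 1. The change passed an unadjusted p under 0.05 for 8 of the 22, and DESeq2 called it for 4. By edgeR the single called change was that of Cybb, the catalytic subunit of the phagocyte NADPH oxidase. It had 628, 568, 600.4 and 487 CPM in Cre-positive cDC2, and 75.8, 71.1, 35.4 and 16.9 CPM in Cre-positive cDC1. It had 527 and 616 CPM in Cre-negative cDC2, and 4.50 and 2.76 CPM in Cre-negative cDC1. The subsets were separate in both settings, and the change was -3.76 ± 0.61 (adjusted p = 9.53e-04). Wdfy4, required in mice for cross-presentation by cDC1, stood at -1.57 ± 0.11 with the transgene and -1.76 ± 0.16 without Cre, with an interval of the change of -0.19 to 0.58. It fell by 0.59 in cDC1 (adjusted p = 0.00467, and 0.193 without Cre-negative cDC1 replicate 2, at -0.40). Psmb8, an immunoproteasome subunit, stood at -1.12 ± 0.07 and -1.34 ± 0.11, with an interval of -0.04 to 0.49.

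Of 16 Fc receptor and complement genes, 11 were cDC2-biased and 1 cDC1-biased with the transgene, against 11 and 2 without Cre, with medians of 2.06 and 2.40. Fcer1g, the signalling chain shared by Fc receptors and several lectins, had 531, 494, 532 and 593 CPM in Cre-positive cDC2, and 134, 143, 89.4 and 76.6 CPM in Cre-positive cDC1. It had 556 and 457 CPM in Cre-negative cDC2, and 22.9 and 13.9 CPM in Cre-negative cDC1. The subsets were separate in both settings and the change was -2.50 ± 0.27 (adjusted p = 9.05e-06). Of 20 chemokine and lipid-guidance receptors, 10 were higher and 4 lower in cDC2 with the transgene, against 7 and 3 without Cre, and 3 changed (Xcr1 and Cxcr3 upward and Ptger3 downward). Of 20 integrin and adhesion genes, 10 were higher and 5 lower in both settings, and Itgam alone changed. Of 18 growth factor and Notch receptors, 10 were higher and 4 lower with the transgene, against 8 and 3 without Cre, and Csf1r and Notch4 changed. Of 11 tested epithelial and ZEB-related genes, 3 were higher and 2 lower with the transgene, against 3 and 1 without Cre, and Zeb2 alone changed.

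A few subset genes differed more with the transgene than without Cre. Of the 6 widened genes, Kndc1 and Wdr95 lay under the average level of 2 on the log2 CPM scale that was set for naming. Without replicate 2 of Cre-negative cDC2 or of Cre-positive cDC2, 3 genes widened. Dnajc22, a heat-shock protein partner, had 11.8, 10.8, 13.1 and 15.7 CPM in Cre-positive cDC2, and 0, 0.127, 0.116 and 0.0580 CPM in Cre-positive cDC1. It had 8.33 and 10.1 CPM in Cre-negative cDC2, and 1.17 and 1.38 CPM in Cre-negative cDC1. The change was 4.53 ± 0.79 (adjusted p = 0.00171), and Dnajc22 fell by 4.05 in cDC1 (adjusted p = 3.12e-04). On the cDC1 side the named genes had a called fall in cDC2. Snx22, a sorting nexin, had 0.904, 1.66, 1.29 and 1.32 CPM in Cre-positive cDC2, and 87.8, 76.9, 83.0 and 104 CPM in Cre-positive cDC1. It had 4.15 and 5.99 CPM in Cre-negative cDC2, and 107 and 124 CPM in Cre-negative cDC1, with a change of -1.58 ± 0.25 (adjusted p = 8.94e-04) and a Cre effect in cDC2 of -1.97 ± 0.20 (adjusted p = 3.76e-06).

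Serpinb2 (plasminogen activator inhibitor 2) had 0.188, 1.43, 1.45 and 1.13 CPM in Cre-positive cDC2, and 21.5, 26.8, 45.8 and 13.2 CPM in Cre-positive cDC1. It had 14.7 and 12.7 CPM in Cre-negative cDC2, and 56.3 and 32.1 CPM in Cre-negative cDC1. The change of -2.98 ± 0.62 (adjusted p = 0.00834) was lost without Cre-negative cDC1 replicate 2, at -2.64, while its fall in cDC2 was called in every fit without a single library. Plce1, a phospholipase C, had 0 CPM in all 4 Cre-positive cDC2 libraries, and 18.9, 11.1, 19.3 and 13.7 CPM in Cre-positive cDC1, at least 136-fold higher in cDC1. Without Cre it had 0.299 and 1.52 CPM in cDC2, and 18.5 and 26.8 CPM in cDC1. Its change was called (adjusted p = 0.0327), a call that held in the fits without a single library only without Cre-negative cDC2 replicate 1 or Cre-positive cDC1 replicate 2, 3 or 4. Its called fall in cDC2 was lost without Cre-negative cDC2 replicate 2 or any 1 of the Cre-positive cDC2 replicates.

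For 19 genes a subset difference was called with the transgene, with a called change, although no difference was called without Cre in either line. Scin, Ankrd33b, Cdon and Fas were the largest on the cDC2 side. Cdon, a cell-surface receptor of the Hedgehog pathway, had 11.9, 12.5, 11.4 and 12.3 CPM in Cre-positive cDC2, and 4.39, 2.50, 4.50 and 2.64 CPM in Cre-positive cDC1. It had 15.5 and 14.8 CPM in Cre-negative cDC2, and 13.7 and 14.6 CPM in Cre-negative cDC1. The Cre-positive cDC1 libraries lay below all other libraries, with a difference of 1.78 ± 0.19 (adjusted p = 3.10e-08) and a change of 1.68 ± 0.31 (adjusted p = 0.00261). Fas, a death receptor, differed by 1.59 ± 0.25 with the transgene and -0.77 ± 0.35 without Cre, with a change of 2.36 ± 0.43 (adjusted p = 0.00261). The change of Scin, an actin-severing protein, was 2.17 ± 0.51 (adjusted p = 0.0237), and was lost without any 1 of the 4 Cre-negative libraries, at 2.14 to 2.20. The change of Ankrd33b was 2.51 ± 0.64 (adjusted p = 0.0393), a call that held in the fits without a single library only without Cre-positive cDC1 replicate 1, 2 or 4 or Cre-positive cDC2 replicate 2, and was lost with the replicate block (2.63, adjusted p = 0.0656).

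On the cDC1 side the largest were AI607873, Atp8b4, Tgfbi and H2afz, all higher in Cre-positive cDC1. Tgfbi, an extracellular matrix protein induced by TGF-beta, had 417, 377, 403 and 511 CPM in Cre-positive cDC2, and 798, 722, 593 and 691 CPM in Cre-positive cDC1. It had 341 and 319 CPM in Cre-negative cDC2, and 265 and 326 CPM in Cre-negative cDC1. The Cre-positive groups were separate and the Cre-negative ones overlapped, with a difference of -0.71 ± 0.12 (adjusted p = 3.80e-05) with the transgene. Its change of -0.88 ± 0.21 (adjusted p = 0.0311) held in the fits without a single library only without Cre-negative cDC1 replicate 2, Cre-positive cDC1 replicate 2, 3 or 4 or Cre-positive cDC2 replicate 4. H2afz, a histone H2A variant gene, differed by -0.67 ± 0.07 with the transgene, with a change of -0.54 ± 0.12 (adjusted p = 0.0199) that was lost without Cre-negative cDC1 replicate 2 (-0.49) or Cre-negative cDC2 replicate 1 (-0.43). AI607873 changed by -0.93 ± 0.21 (adjusted p = 0.0149), lost without either Cre-negative cDC1 replicate or Cre-negative cDC2 replicate 1. Atp8b4, a phospholipid flippase gene, changed by -1.37 ± 0.30 (adjusted p = 0.0121), lost without Cre-negative cDC1 replicate 2 or Cre-negative cDC2 replicate 1.

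Markers of other cell types a sort could hold were read in the same way. Of 20 pDC markers, 12 were higher and 2 lower in cDC2 with the transgene, against 11 and 3 without Cre, and Tlr7 and Lair1 changed. Their summed level was 1472 to 1680.2 CPM in Cre-positive cDC2 and 2703 to 4161 CPM in Cre-positive cDC1. Without Cre it was 1339.8 to 1358 CPM in cDC2 and 3708 to 3841 CPM in cDC1. The sum in cDC1 rested largely on Mpeg1, with 40924 to 79357 counts in Cre-positive cDC1 and 1873 to 5575 in Cre-positive cDC2. Siglech ran the other way, with 0 to 10 counts in Cre-positive cDC1 and 71 to 721 in Cre-positive cDC2. Lair1, an inhibitory collagen receptor, changed by -2.29 ± 0.28 (adjusted p = 3.63e-05). Of 17 monocyte markers, 12 were higher and 2 lower in cDC2 with the transgene, against 9 and 1 without Cre, and Csf1r, Ms4a4c and Ear2 changed, all downward. Their summed level was 5835 to 8519 CPM in Cre-positive cDC2 and 2096 to 3119 CPM in Cre-positive cDC1. Without Cre it was 5147 to 5923 CPM in cDC2 and 1802 to 2980.4 CPM in cDC1. Much of these sums was Nr4a1, with 82887 to 143024 counts in Cre-positive cDC2 and 28318 to 74138 in Cre-positive cDC1. Ms4a4c, a membrane protein of the MS4A family, changed by -2.71 ± 0.46 (adjusted p = 0.00133).

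Of 15 red pulp macrophage markers, 8 were higher and 4 lower in cDC2 with the transgene, against 7 and 4 without Cre, and Adgre1 alone changed. Their summed level was 806 to 894 CPM in Cre-positive cDC2 and 573 to 823 CPM in Cre-positive cDC1, against 658 to 763 CPM and 426 to 460.2 CPM without Cre. Adgre1 (F4/80) changed by -2.66 ± 0.40 (adjusted p = 4.48e-04), with 369 to 441 CPM in Cre-positive cDC2 and 30.5 to 80.8 CPM in Cre-positive cDC1. Hmox1 (heme oxygenase 1) had 28.3, 33.9, 25.7 and 39.7 CPM in Cre-positive cDC2, and 187, 149, 88.2 and 166 CPM in Cre-positive cDC1, against 20.7 to 28.5 and 45.1 to 51.3 CPM without Cre. Its change of -1.24 ± 0.37 was not called (adjusted p = 0.0909), but was called by DESeq2, with the replicate block (-1.20, adjusted p = 0.0415) and without Cre-positive cDC1 replicate 3, at -1.42. Within cDC1, Hmox1 rose by 1.61 with Cre (adjusted p = 5.25e-04).

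No B cell (11 tested), T cell (11), NK cell (10), neutrophil (9) or erythroid (7) marker had a called change by edgeR. At an unadjusted p under 0.05 there were 0, 1, 3, 1 and 1 in that order of lists, and DESeq2 called 1 NK cell marker and none of the others. B cell markers were higher in cDC2 for 8 of 11 with the transgene and 5 without Cre. Their summed level was 183 to 304 CPM in Cre-positive cDC2 and 25.3 to 45.0 CPM in Cre-positive cDC1, against 228 to 231 CPM and 41.6 to 68.4 CPM without Cre. Cd79b, a B cell receptor chain, had 42.5, 42.4, 45.9 and 49.4 CPM in Cre-positive cDC2, and 3.70, 4.41, 4.46 and 2.52 CPM in Cre-positive cDC1, and its change of 0.20 ± 0.38 had an interval of -0.58 to 0.99. The summed T cell markers reached at most 64.4 CPM in Cre-positive cDC2 and 11.1 CPM in Cre-positive cDC1, against 52.5 CPM and 32.4 CPM without Cre. The summed NK markers ran from 79.8 to 119.8 CPM in Cre-positive cDC2 and from 101 to 129.5 CPM in Cre-positive cDC1, against 77.0 to 88.5 CPM and 78.9 to 114 CPM without Cre. The summed neutrophil markers, Mmp9 among them, ran from 164 to 360.2 CPM in Cre-positive cDC2 and from 3.73 to 11.4 CPM in Cre-positive cDC1, against 167 to 179 CPM and 5.37 to 14.4 CPM without Cre. The summed erythroid markers ran from 66.8 to 109 CPM in Cre-positive cDC2 and from 24.2 to 51.9 CPM in Cre-positive cDC1, against 77.8 to 87.5 CPM and 19.4 to 33.7 CPM without Cre. No tested marker of these lists was at 0 in a whole Cre-positive group. The part of other cells in the subset differences was not tested.

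**Figure D5:**
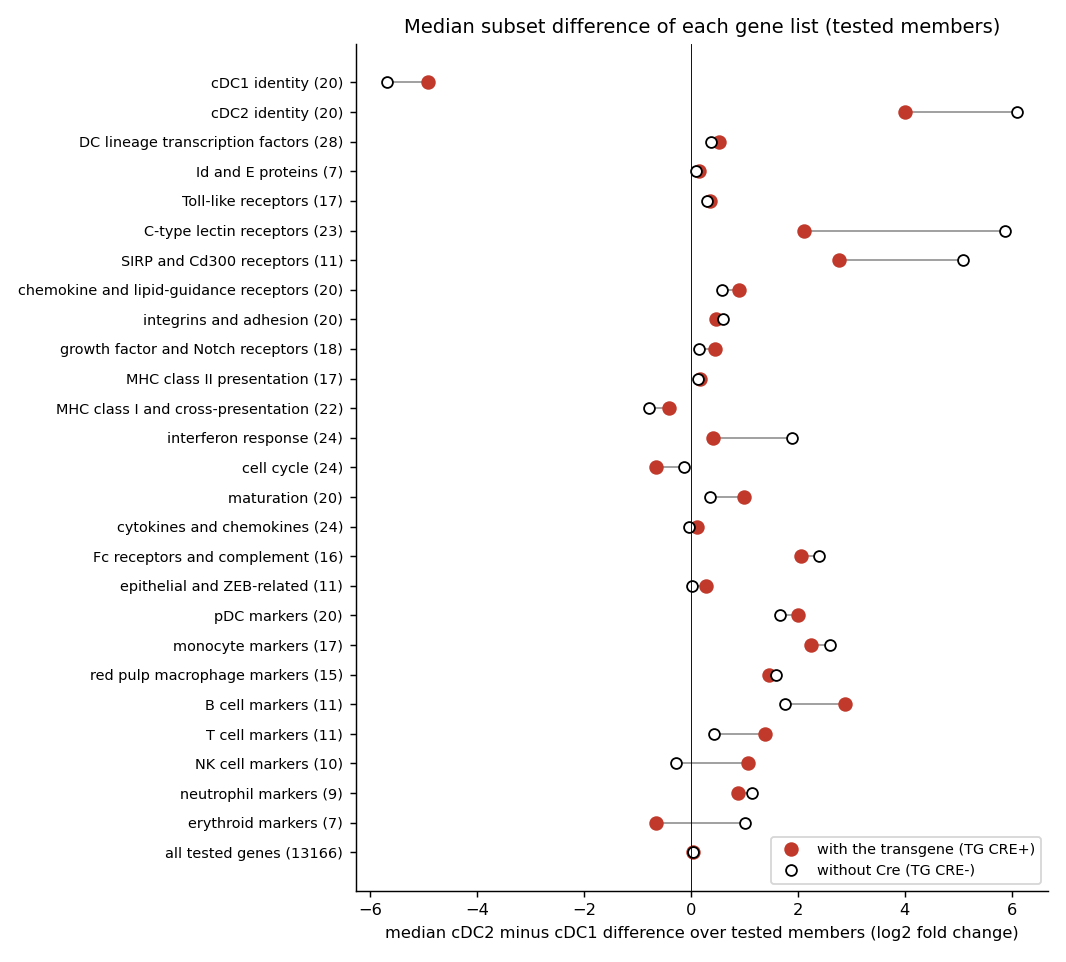
Median subset difference (log2 fold change, cDC2 over cDC1) over the tested members of each gene list (number in brackets) with the transgene (filled) and without Cre (open). The medians of cDC2 identity genes (4.01 and 6.09), C-type lectin receptors (2.12 and 5.87) and interferon response genes (0.41 and 1.89) are smaller with the transgene, and that of cell cycle genes (-0.66 and -0.13) is larger in size.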

How the data were processed

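RNA of sorted splenic cDC2 and cDC1 was sequenced in 24 libraries, grouped by title. Amplification used SMART-Seq v4 on 4 ng of RNA and 15 PCR cycles, and a NextSeq500 gave single reads of 75 bp, per the labels' protocols. The submitters' processing notes name FastQC 0.11.4, Trimmomatic 0.35, TopHat2 2.1.0, SAMtools 0.1.18 and mm10. The deposited files hold the authors' whole-number counts per gene symbol, without scaling, for 24421 genes. What counted the reads, with which annotation and strand setting, is not given in the sources used here, so overlapping genes cannot be told apart. The 5 summary lines of each file were dropped before scaling.

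In R 4.3.3, genes were kept by filterByExpr (minimum count 10, minimum total 15) and scaled by TMM (factors 0.925 to 1.07). All 24 libraries entered 1 quasi-likelihood fit of edgeR 4.0.16 with a mean for each of 8 groups, and p-values of 13166 genes had Benjamini-Hochberg adjustment and a threshold of 0.05. The contrasts were cDC2 minus cDC1 with the transgene, the same without Cre in each line, and the change. DESeq2 1.42.0, other scalings and filters, a replicate block, smaller fits and omissions of libraries were alternatives. Intervals are at 95%, counting intervals and floors (3 counts per library) cover counting error only, and positions are from GENCODE on GRCm38. Known folds were also put into simulated counts, only in genes with at least 1 CPM in every group of the transgene line. Of these, 87 and 100% of 2-fold and 4-fold subset differences were recovered with the transgene (13002 genes fitted). For the change, 53 and 89% were recovered (12968 genes fitted). False calls made up 6.03 and 2.74% of the calls. Recovery for genes near 0 in a subset was not measured.

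The replicate numbers of the titles were taken as a possible pairing of cDC2 with cDC1 libraries. The deviations of same-numbered libraries from the group mean were all correlated above 0.1 (0.136, 0.156, 0.153 and 0.112 with Cre, 0.131 without). With 2 libraries a group, the values without Cre are a single correlation of 0.131 and its mirror of -0.131. The main fit and its p-values ignored this pairing, which entered only in the alternative with the replicate block. Of the libraries with different numbers, cDC2 1 with cDC1 2 (0.144) and cDC2 3 with cDC1 4 (0.103) also passed 0.1, and the others ran from -0.181 to 0.0419. The labels do not say what a number marks. The rule for naming took Zeb2 and Id2, from each list up to 3 changed genes by p and up to 2 others, the largest narrowed, standing, widened or opposite subset genes (average log2 CPM at or above 2), and the 4 largest in each direction among differences seen with the transgene alone. Other list members completed groups. Members and lists were chosen with earlier results of these data known.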

Additional observations from a re-analysis of the deposited data

Results flagged for a closer look

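Dixon's test at 95% was applied to the 4 Cre-positive libraries of each subset for named genes with counts there, 172 groups in all, and 8 held a library far from the other libraries of its group. Chance flags about 1 in 20 groups, or 8.6 here. Such libraries were Cre-positive cDC2 replicate 3 for Cd207 (0.0829 CPM), replicate 1 for Serpinb2 (0.188 CPM) and replicate 2 for Lgmn (86.2 CPM). In Cre-positive cDC1 they were replicate 1 for Dscam (0.108 CPM) and Clec10a (0.144 CPM), replicate 2 for Scn3a (0.0424 CPM), and replicate 4 for Mycl (658 CPM) and Cd200 (9.97 CPM).

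The subset difference differed between mice with and without Cre for 57 of 87 named genes, by edgeR's test of the change itself. The values that follow are that change on the log2 scale, cDC2 minus cDC1 with the transgene minus the same without Cre. Among cDC1 genes and receptors it was 1.10 for Xcr1, 1.38 for Clec9a, 1.50 for Irf8, 2.70 for Gcsam, 1.24 for Tlr11, 1.12 for Ly75, 1.18 for Cxcr3, 1.54 for Notch4 and 2.89 for Fcrla. It was 3.83 for Mab21l3, 3.79 for Ltbp2, 3.47 for Ttc39a, 3.36 for Plcb4, 3.23 for Nid2 and 3.10 for Sema4c. Among cDC2 genes and receptors it was -3.41 for Zeb2, -5.39 for Clec7a, -4.58 for Clec4a1, -2.09 for Cd300a, -2.31 for Cd300lf, -2.32 for Cd4, -2.98 for Itgam, -1.46 for Csf1r, -3.32 for Sirpa, -4.59 for Sirpb1a, -5.50 for Cd101 and -3.75 for Prdm1. The fitted values of -6.72 for Clec4a4, -5.68 for Cd300ld, -6.63 for Ptger3 and -7.05 for Plce1 depend on the prior count, since a group had at most 3 counts, and are no bounds.

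For sensors and interferon response genes the change was -3.23 for Tlr1, -4.18 for Tlr7, -5.01 for Ddx58, -3.84 for Oasl2, -4.43 for Rtp4 and -5.90 for Ifit3b. It was -2.50 for Fcer1g, -3.76 for Cybb, -1.14 for Lgmn, -1.98 for Ccl6, 1.64 for Cd200 and 2.80 for Il12b. Widened differences were those of Serpinb2 (-2.98), Snx22 (-1.58) and Dnajc22 (4.53). Differences called with the transgene alone changed by 2.17 for Scin, 2.51 for Ankrd33b, 1.68 for Cdon, 2.36 for Fas, -0.93 for AI607873, -1.37 for Atp8b4, -0.88 for Tgfbi and -0.54 for H2afz. Markers of other cell types changed by -2.66 for Adgre1, -2.71 for Ms4a4c and -2.29 for Lair1.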

How the results depend on the processing

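With 2 Cre-negative libraries per subset, the change was the least firmly measured quantity. DESeq2's Wald test called 475 changes in place of 264, 72 narrowed cDC1-high and 13 widened genes, and 119 Cre effects in cDC2 in place of 43, which was 71 with no filter. With at least 5 CPM in 4 libraries, 469 cDC2-high genes stood, fewer being tested. With the controls of both lines pooled, which brings the choosing libraries into the test, 677 changed and 97 cDC1-high and 175 cDC2-high genes narrowed. Subset genes at least 2-fold apart gave a median cDC1-high change of 0.36, 847 cDC1-high and 1264 cDC2-high standing and 13 widened genes. Those at least 16-fold apart gave medians of 1.01 and -1.01, 12 and 52 narrowed, 129 and 346 standing and 3 widened.

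Without Cre-positive cDC1 replicates 1 and 2, the cDC1-high median change was 0.57 and 27 narrowed. Chosen after seeing the data, Cre-positive replicates 3 and 4 alone gave 139 changes (118 shared), 590 Cre effects in cDC1, medians of 0.48 and -0.30, and 25 cDC1-high and 51 cDC2-high narrowed. Replicates 1 and 2 alone gave 333 changes (202 shared), 8 cell cycle genes and 3 widened genes. Calls were also counted over the differences with the transgene and the changes of named genes other than Zeb2 and Id2. Of these, 13 were lost and 6 gained with replicates 1 and 2 alone, and 15 were lost and 0 gained with replicates 3 and 4 alone. Not all of them are given beside the genes.

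Leaving out each library in turn gave 3254 to 3508 genes higher and 3177 to 3544 lower in cDC2 with the transgene, 2181 to 2795 and 2099 to 2716 without Cre, and 138 to 335 changes. The low came without Cre-negative cDC2 replicate 1, and 141 without Cre-negative cDC1 replicate 2. Narrowed cDC1-high genes numbered 17 to 53 (17 and 20 without those libraries), standing ones 341 to 390, narrowed cDC2-high genes 61 (without Cre-negative cDC1 replicate 2) to 133, standing ones 688 to 772 and widened ones 3 (without replicate 2 of Cre-negative or Cre-positive cDC2) to 6. Median changes were 0.60 to 0.76 for cDC1-high and -0.99 (without Cre-negative cDC1 replicate 1) to -0.54 for cDC2-high genes. Cre effects numbered 487 to 982 in cDC1 and 18 to 49 in cDC2, the lows coming without Cre-negative replicate 2 of that subset. Changed list members were 3 (without Cre-negative cDC2 replicate 1) to 9 for cDC1 identity, 9 to 12 for cDC2 identity, 6 to 7 for SIRP and Cd300 and 8 to 11 for interferon response, with 15 to 21 cell cycle genes lower. For Zeb2 the difference was 1.76 to 1.81 and the change -3.68 to -3.21, and for Id2 -1.45 to -1.30 and 0.21 to 0.55.

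With the replicate block 273 genes changed, 185 of them shared, and among named genes the pairing altered no calls beyond those given beside Cd36, Cxcr3, Tlr7, Hmox1 and Ankrd33b. A fit of the transgene line alone called 215 changes, 184 of them shared, and not those of Cxcr3 (1.17, adjusted p = 0.0872), Notch4 (1.54, 0.103), Scin (2.16, 0.0610), Sema4c (3.10, 0.140) and Tlr7 (-4.19, 0.0902).

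No called value of a named gene turned sign in any of these fits. Of values not called, the change of Tcf4 was -0.0337 with the block, -0.37 (without Cre-negative cDC1 replicate 1) to 0.30 when single libraries were left out, with -0.06 and -0.03 without Cre-positive cDC1 replicate 2 or 4, -0.07 without Cre-negative cDC2 replicate 1 and -0.08 and -0.03 without Cre-positive cDC2 replicate 2 or 3, and was -0.0094 without Cre-positive cDC1 replicates 1 and 2 and -0.13 with replicates 3 and 4 alone. Over single omissions the change ran from -0.67 to 1.09 for Cx3cr1 and -3.63 to 5.19 for Mmp9 (lows without Cre-negative cDC1 replicate 1), from -0.0383 to 0.20 for Cd86 and -0.0108 to 0.35 for Wdfy4 (lows without Cre-negative cDC1 replicate 2), and from -0.18 (without Cre-positive cDC2 replicate 2) to 1.45 for Fzd1. Without Cre-positive cDC1 replicates 1 and 2 it was -0.00139 for Cd86 and -0.0160 for Cadm1, and for Fzd1 it was -0.59 with replicates 3 and 4 alone. The difference of Sema4c was -0.35 (without Cre-positive cDC2 replicate 2) to 0.76 over single omissions and -0.44 with replicates 3 and 4 alone, and that of Ifit3b -0.33 with replicates 1 and 2 alone. The cause was not tested.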
